A study of Mus musculus with 6 samples.

Results

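Amino acid transporters supply the leucine, glutamine, arginine and cystine that tumour cells need for growth, and the mRNA of 10 of them was compared between liver tumour cell lines of 2 genotypes. The 10 genes, Slc3a2, Slc7a5, Slc7a6, Slc7a11, Slc1a5, Slc38a1, Slc38a2, Slc7a1, Slc38a9 and Slc43a1, were chosen by symbol from the 53465 genes of the count table for their role in amino acid supply to mTORC1. All 10 were in the table and 9 had enough counts to be tested, Slc43a1 being the exception. The lines came from tumours of C57BL/6 mice that had received a Myc transposon, Cas9 and one guide RNA by hydrodynamic tail vein injection. Both groups therefore carry the Myc transgene. In the 3 Myc_Utx lines (replicates 2A, 2B and 2D) the guide was directed against Kdm6a, also called Utx, an H3K27 demethylase of the MLL3/4 COMPASS-like complex. The 3 comparison lines, labelled Myc_p53 (replicates 1, 2 and 3), carried another guide. Each line is a primary liver cancer cell line grown from dissociated tumour tissue and passaged until other cells were no longer seen, and RNA was taken from cultured cells, not from liver. No line with Myc alone was analysed here, so a higher level in Myc_Utx lines and a lower level in Myc_p53 lines cannot be told apart. In such bulk RNA, fewer cells of one type and less RNA per cell cannot be told apart either.

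mTORC1 is a kinase complex that promotes protein synthesis and cell growth when amino acids are plentiful. Leucine enters cells mainly through a heterodimer of the light chain Slc7a5 and the heavy chain Slc3a2, in exchange for glutamine that carriers such as Slc1a5 bring in, and free amino acids in the cytosol and the lysosome are read by sensors that act on the Rag GTPases, which bring mTORC1 to the lysosomal surface. When amino acids are scarce, the transcription factor ATF4 raises the transcription of many transporter genes. The study asked how loss of Kdm6a in the liver relates to tumour growth and to mTORC1 activity.

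The promoter sequence of the member that passed the test is shown first, with those of the members that hold a searched motif. Of the 10 members, 7 had a promoter in the RefSeq table for GRCm38.p6. In the 250 bases before each start, 2 motifs were searched on both strands. These were the E-box CACGTG, the core site bound by MYC and MAX, and the amino acid response element TGATGNAAN, the composite site bound by ATF4 with C/EBP proteins. The E-box was present in 6.02% and the response element in 3.44% of 32851 promoter windows of the same length. Capitals mark the matches in the sequences, which are given 5′ to 3′ on the strand of the gene.
Slc38a9, chr13:112660516-112660765, plus strand: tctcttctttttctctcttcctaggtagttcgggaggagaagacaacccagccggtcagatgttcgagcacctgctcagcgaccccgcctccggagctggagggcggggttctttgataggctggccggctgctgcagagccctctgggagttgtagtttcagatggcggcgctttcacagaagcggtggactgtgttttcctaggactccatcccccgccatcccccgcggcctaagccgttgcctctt
Slc7a11, chr3:50443614-50443863, minus strand: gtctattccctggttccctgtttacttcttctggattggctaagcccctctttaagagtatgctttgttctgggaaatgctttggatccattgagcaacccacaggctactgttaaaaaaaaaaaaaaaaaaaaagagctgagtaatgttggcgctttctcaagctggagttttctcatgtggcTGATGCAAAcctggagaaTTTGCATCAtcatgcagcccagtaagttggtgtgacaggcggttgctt
Slc43a1, chr2:84840073-84840322, plus strand: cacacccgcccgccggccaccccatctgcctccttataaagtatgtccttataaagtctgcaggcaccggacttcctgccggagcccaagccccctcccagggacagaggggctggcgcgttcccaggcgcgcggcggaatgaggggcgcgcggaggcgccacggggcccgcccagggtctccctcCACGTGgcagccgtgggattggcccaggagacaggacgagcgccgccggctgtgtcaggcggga
The Slc7a11 window held 2 response elements, beginning at bases 185 and 203 of the window, the second on the opposite strand. The Slc43a1 window held 1 E-box, at base 187. It lies before a start inside the counted gene, which begins at 84838850. Neither motif was in the Slc38a9 window or in the windows of Slc3a2, Slc7a1, Slc7a6 and Slc38a2. The Slc3a2 window, a window of Slc7a1 and a window of Slc7a6 also lie before starts inside the counted gene. Those of Slc38a9 and Slc7a11 lie before starts just inside it.

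Between 4656103 and 6937497 reads were counted per line, and the 10 members together took 0.164 to 0.229% of them. The targeted gene Kdm6a was at 39.7 to 49.0 CPM (counts scaled to library size with the TMM method of edgeR) in Myc_Utx lines and 42.5 to 69.5 in Myc_p53 lines, so its mRNA overlapped between the groups and does not check the label Myc_Utx (log2 fold change −0.39, adjusted p 0.243 in edgeR). Myc was at 39.3 to 58.1 CPM against 44.9 to 73.2 and did not pass the test (adjusted p 0.667). These are counts at the mouse Myc gene, and whether they include reads of the transgene was not tested. Of 12 hepatocyte and liver tumour markers, the secreted protein gene Alb did not exceed 4.87 CPM and the transcription factor gene Hnf4a 10.1 CPM in any line. The list summed to 3.34 to 95.5 CPM in Myc_Utx and 54.9 to 1224 CPM in Myc_p53 lines, most of it from the keratins Krt8 and Krt18, and without these to 3.34 to 10.1 and 19.5 to 68.9 CPM. Apob was the largest part of the sum without keratins in each Myc_p53 line, at 13.2 to 53.9 CPM. Of the 12 hepatocyte markers, 3 were lower and 1 (Apoa1) was higher in every Myc_Utx line, beside 20.9% and 21.1% of all genes tested. Macrophage markers moved with genotype, 14 of 16 being lower in every Myc_Utx line, beside 20.9% of all genes tested. Some of the 14 had few counts in any line, such as Ptprc with 0 in Myc_Utx and 1 to 3 in Myc_p53 lines. Cd14 was higher in every Myc_Utx line, at 32.3 to 53.2 CPM against 18.9 to 21.7. All 16 summed to 38.1 to 56.0 CPM in Myc_Utx and 69.3 to 154 CPM in Myc_p53 lines, and the 15 without Cd14 to 2.79 to 6.55 and 50.4 to 132 CPM. Lyz2, for example, did not exceed 0.94 CPM in Myc_Utx lines and was at 19.3 to 48.1 CPM in Myc_p53 lines. Endothelial markers summed to at most 1.42 CPM.

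Of the 9 members tested, 1 was lower in Myc_Utx lines, Slc38a9, and none was higher at an adjusted p under 0.05 in edgeR. Across all 11510 genes tested, 7.69% were lower and 6.99% were higher by the same rule, so the share of members called lay near that of genes in general. These were 885 lower and 805 higher genes, or 1009 and 601 when lines were scaled by total counts only, and the calls of the members were the same on both scales. Without adjustment, 1 member was higher (Slc1a5) and 1 lower (Slc38a9) at p under 0.05, beside 16.6% and 18.3% of all genes tested. The groups did not overlap for 3 members. Slc3a2 and Slc1a5 were higher in each Myc_Utx line than in any Myc_p53 line, and Slc38a9 was lower, against 21.1% and 20.9% of all tested genes that separated in these directions. The median log2 fold change of the 9 members was −0.081, beside −0.012 over all genes tested. With 3 lines in each group an exact permutation test of a single gene reaches a two-sided p of 0.1 at best, so each gene was judged by the edgeR fit, in which genes lend each other information on their variance.

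**Figure D1:**
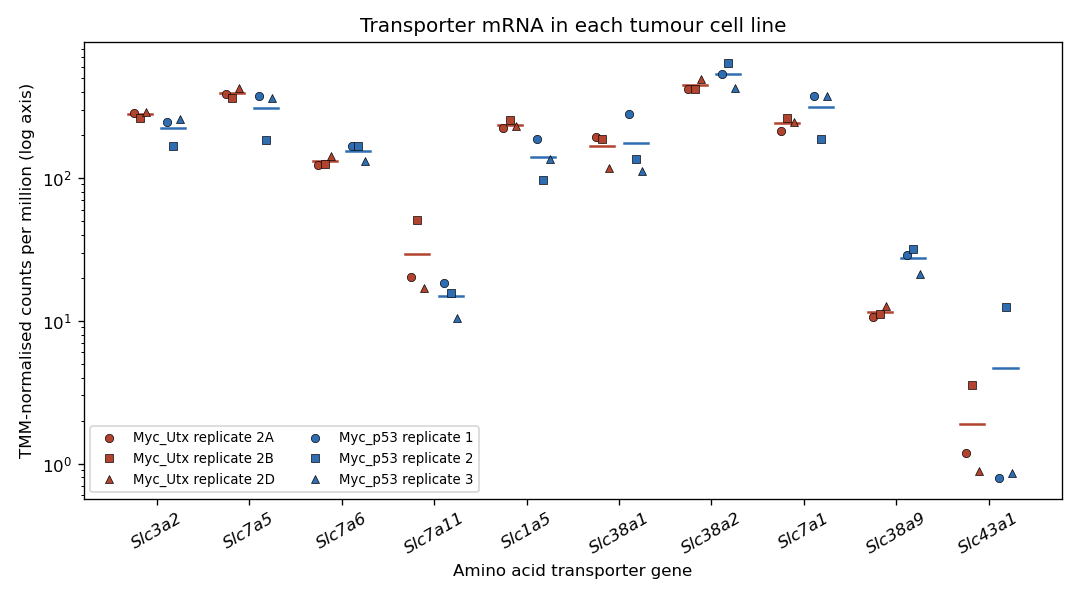
TMM-normalised CPM on a log axis for the 10 transporter genes in each cell line, with red symbols for Myc_Utx, blue symbols for Myc_p53 and bars for group means. The red and blue points are apart for Slc3a2, Slc1a5 and Slc38a9, and Myc_p53 replicate 2 (blue square) is the lowest point for Slc7a5, Slc3a2, Slc1a5 and Slc7a1. Values are not divided by gene length, so heights compare lines within a gene.

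Expressed per kilobase of exonic length, the scale used here to compare genes, the members fell into 2 tiers. For most genes this length merges all annotated exons, so the order between genes is approximate. Slc38a2 had the highest mean level over the 6 lines, 105 CPM per kb, followed by Slc7a5 at 94.3, Slc3a2 at 71.5, Slc1a5 at 45.0, Slc7a6 at 31.3, Slc7a1 at 24.0 and Slc38a1 at 20.4. Slc7a11 at 1.59, Slc38a9 at 1.17 and Slc43a1 at 0.575 CPM per kb formed the lower tier. The step between Slc38a1, whose lowest line was at 13.4, and Slc7a11, whose highest line was at 3.66, was the only one between neighbours in this order at which the ranges over the 6 lines did not overlap. Within lines, Slc7a5 was above Slc3a2 and Slc3a2 above Slc1a5 in 6 of 6 lines. Slc38a2 was above Slc7a5 in only 2 lines, and Slc7a1 above Slc38a1 in 3 lines, so those neighbours had no settled order. Slc7a11 and Slc38a9 changed places with genotype. Slc7a11 was the higher in all 3 Myc_Utx lines (1.46, 3.66 and 1.22 against 0.633, 0.673 and 0.760 CPM per kb) and the lower in all 3 Myc_p53 lines (1.33, 1.12 and 0.748 against 1.74, 1.92 and 1.27).

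Slc3a2, on chromosome 19 at 8706882 to 8723369 of GRCm38 (minus strand), encodes the heavy chain CD98hc that carries the light chains Slc7a5, Slc7a6 and Slc7a11 to the cell surface. Its level was 286, 263 and 290 CPM in Myc_Utx replicates 2A, 2B and 2D and 246, 169 and 259 CPM in Myc_p53 replicates 1, 2 and 3. The groups did not overlap, although Myc_Utx replicate 2B and Myc_p53 replicate 3 were within a few CPM of each other. The log2 fold change was 0.32 with a standard error of 0.18 and a 95% interval of −0.11 to 0.74, and the adjusted p of 0.246 missed the threshold.

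Slc7a5 (LAT1), on chromosome 8 at 121881150 to 121907694 (minus strand), is the light chain that takes up leucine and other large neutral amino acids. It was at 387, 363 and 425 CPM in Myc_Utx and at 378, 186 and 360 CPM in Myc_p53 lines. Myc_p53 replicates 1 and 3 lay beside the Myc_Utx lines, and replicate 2 lay below every other line. The log2 fold change of 0.35 (SE 0.27, interval −0.30 to 0.99, adjusted p 0.396) was 0.087 without Myc_p53 replicate 2. That of Slc3a2 was 0.15 without the same line.

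Slc7a6 (y+LAT2), on chromosome 8 at 106168857 to 106198706 (plus strand), exchanges arginine and lysine for neutral amino acids. It was at 123, 125 and 143 CPM in Myc_Utx and 167, 167 and 132 CPM in Myc_p53 lines. The highest Myc_Utx line was above the lowest Myc_p53 line, and the log2 fold change of −0.25 (SE 0.14, interval −0.58 to 0.073) had an adjusted p of 0.231. Set against its heavy chain, the Slc7a6 to Slc3a2 ratio of levels per kilobase was 0.333, 0.367 and 0.380 in Myc_Utx lines. It was 0.525, 0.765 and 0.394 in Myc_p53 lines, so all 3 Myc_Utx lines lay below all 3 Myc_p53 lines, with an exact permutation p of 0.1, the smallest the design allows (0.3 after adjustment over 3 light chain ratios). The Slc7a5 to Slc3a2 ratio averaged 1.33 ± 0.0574 (SD, n = 3) in Myc_Utx and 1.28 ± 0.211 (SD, n = 3) in Myc_p53 lines and overlapped (exact permutation p 0.9).

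Slc7a11 (xCT), on chromosome 3 at 49892526 to 50443614 (minus strand), is the light chain that imports cystine in exchange for glutamate and so feeds glutathione synthesis. It was at 20.3, 50.9 and 16.9 CPM in Myc_Utx and at 18.5, 15.6 and 10.4 CPM in Myc_p53 lines. Myc_Utx replicate 2B stood above every other line. Replicate 2A was also above every Myc_p53 line, and replicate 2D lay below Myc_p53 replicate 1. Its log2 fold change of 0.99 (SE 0.47, interval −0.14 to 2.12) had an adjusted p of 0.187 and was 0.35 without Myc_Utx replicate 2B. This is the promoter with the 2 response elements shown above.

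Slc1a5 (ASCT2), on chromosome 7 at 16781340 to 16798274 (plus strand), imports glutamine and other small neutral amino acids. It was at 222, 254 and 232 CPM in Myc_Utx and at 188, 96.0 and 135 CPM in Myc_p53 lines. Every Myc_Utx line was above every Myc_p53 line. The log2 fold change was 0.76 with a standard error of 0.24 and an interval of 0.18 to 1.34, and the adjusted p of 0.0790 in edgeR missed the threshold. DESeq2 gave 0.74 with an adjusted p of 0.0257, and called 11.0% of genes higher and 13.2% lower in Myc_Utx lines. Leaving out Myc_p53 replicate 1 gave 1.02 with an adjusted p of 0.0396, and over 12 alternatives the adjusted p ranged from 0.0257 to 0.192.

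Slc38a1 (SNAT1), on chromosome 15 at 96571418 to 96642913 (minus strand), and Slc38a2 (SNAT2), on the same chromosome at 96687394 to 96699698 (minus strand), are sodium-coupled carriers of glutamine and alanine. Slc38a1 was at 195, 187 and 117 CPM in Myc_Utx and 280, 136 and 112 CPM in Myc_p53 lines. Both groups spanned a wide range and overlapped, and the log2 fold change of −0.081 (SE 0.38, interval −0.995 to 0.83, adjusted p 0.896) turned to 0.10 with offsets for exonic length. Slc38a2 was at 419, 419 and 495 CPM against 531, 636 and 425 CPM. Here Myc_p53 replicate 2 was the highest line, and the log2 fold change of −0.26 (SE 0.17, interval −0.66 to 0.15) had an adjusted p of 0.320. It was −0.10 without Myc_p53 replicate 2 and −0.40 without replicate 3, and passed the threshold in neither case.

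Slc7a1 (CAT1), on chromosome 5 at 148327410 to 148399904 (minus strand), is a carrier of arginine and lysine. It was at 215, 261 and 247 CPM in Myc_Utx and at 377, 186 and 376 CPM in Myc_p53 lines. Myc_p53 replicates 1 and 3 were above all Myc_Utx lines and replicate 2 was below them. The log2 fold change of −0.38 (SE 0.28, interval −1.04 to 0.29, adjusted p 0.370) was −0.64 without Myc_p53 replicate 2, with an adjusted p of 0.0266, and −0.10 with length offsets, with an adjusted p of 0.818. These adjusted p values are the lowest and highest over the 12 alternatives.

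Slc38a9, on chromosome 13 at 112660751 to 112738749 (plus strand), is a lysosomal membrane protein that senses arginine in the lysosome and activates mTORC1 through the Ragulator complex and the Rag GTPases. It fell in Myc_Utx lines and was the only member past the threshold. Its level was 10.6, 11.2 and 12.7 CPM in Myc_Utx and 29.1, 32.1 and 21.2 CPM in Myc_p53 lines, from 53 to 60 counts and 149 to 184 counts. All Myc_Utx lines were close together and below the lowest Myc_p53 line. The log2 fold change was −1.25 with a standard error of 0.22, an interval of −1.79 to −0.72 and an adjusted p of 0.0223. Its exons overlap an antisense gene, Gm47827, which had 0 to 1 counts in Myc_Utx and 3 to 9 in Myc_p53 lines, and whether reads were counted by strand is not given in the sources used here. Of the 16 macrophage markers, 14 moved in the same direction as Slc38a9. The hepatocyte markers without keratins also summed to less in Myc_Utx lines, largely through Apob, and 3 of the 12 were lower in every Myc_Utx line. The part of these markers in the result was not tested.

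The call of Slc38a9 did not hold in every setting, while its direction did. With offsets for exonic length, which is 16704 bases for this gene, the log2 fold change was −0.92 and the adjusted p 0.0602. Leaving out 1 line at a time gave −1.41 to −1.13. The adjusted p stayed under 0.05 without Myc_p53 replicate 1 (0.0487) or replicate 2 (0.0349) and passed above it without Myc_Utx replicate 2A (0.0811), 2B (0.0812) or 2D (0.0805) or Myc_p53 replicate 3 (0.0529). Over 12 alternatives it ranged from 0.000301, in DESeq2, to 0.0812.

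Slc43a1 (LAT3), on chromosome 2 at 84838850 to 84863594 (plus strand), is a carrier of branched-chain amino acids and phenylalanine. It had 6, 19 and 4 counts in Myc_Utx and 5, 67 and 6 counts in Myc_p53 lines, too few for the filter on low counts. Myc_p53 replicate 2 held more counts than any other line, and the remaining Myc_p53 lines were at the level of Myc_Utx replicates 2A and 2D. With no filter its log2 fold change was −1.24 with a standard error of 1.03 and an adjusted p of 0.530. This is the promoter with the E-box shown above.

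**Figure D2:**
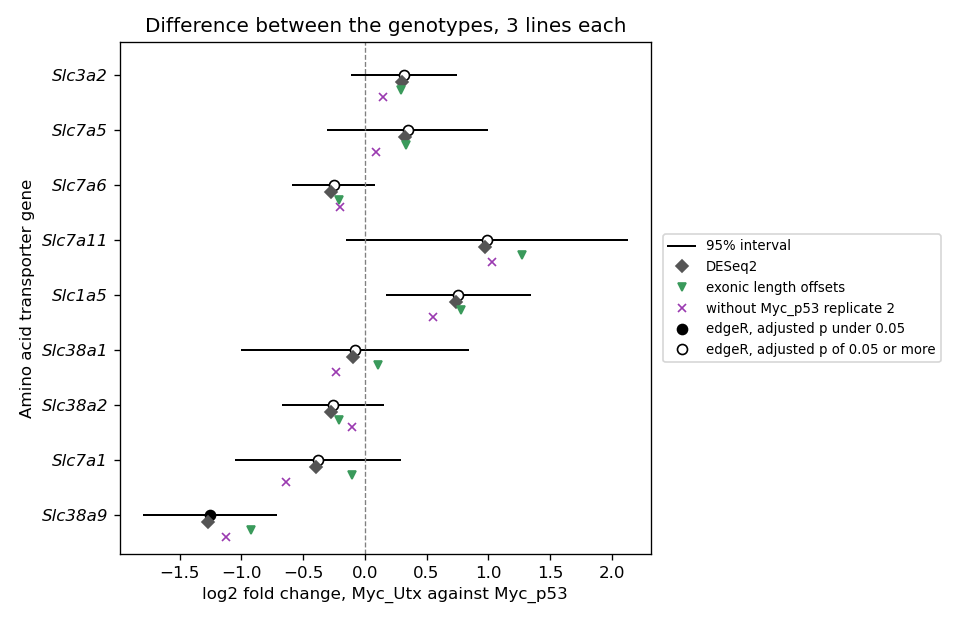
Log2 fold change of the 9 tested transporter genes, Myc_Utx against Myc_p53, with 95% intervals from edgeR (circles), and the values from DESeq2, with exonic length offsets and without Myc_p53 replicate 2. The filled circle is Slc38a9 at −1.25, the interval of Slc1a5 (0.18 to 1.34) also lies to the right of 0, and the intervals of the other members include 0.

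Myc_p53 replicate 2 was the lowest of the 6 lines for 4 of the 9 tested members, Slc7a5, Slc3a2, Slc1a5 and Slc7a1. Across all tested genes it was the lowest line in 21.3%. On the log2 scale Slc7a1 was −1.01, Slc7a5 −0.99, Slc1a5 −0.75 and Slc3a2 −0.58 in this line relative to the mean of Myc_p53 replicates 1 and 3, whereas Slc38a2 was 0.41 and Slc38a9 0.35. Of the 18 genes of a list of ATF4 and its targets, 10 were also lowest in Myc_p53 replicate 2. Among them were Atf4 itself, at −0.75 in this line, Asns, which makes asparagine, at −0.97, and Mthfd2, a mitochondrial enzyme of folate metabolism, at −1.28. In the same list Cebpb (0.77), Ddit4 (0.47), Phgdh (0.22) and Ddit3 (0.19) went the other way. This comparison was made after the values had been seen and rests on 1 line, so it has no test. Over all genes tested, log2 CPM of this line had a Pearson's r of 0.878 and 0.911 with Myc_p53 replicates 1 and 3. With the Myc_Utx lines r was 0.857 to 0.868. Between Myc_p53 replicates 1 and 3 it was 0.938, and among the Myc_Utx lines 0.942 to 0.949. The same line differed from Myc_p53 replicates 1 and 3 in other genes too, and in Col3a1 and Krt8 it lay near the Myc_Utx lines. Col3a1, a collagen gene of fibroblasts, was at 2721 CPM in it, at 1731 to 2558 CPM in Myc_Utx lines and at 10.3 and 73.9 CPM in Myc_p53 replicates 1 and 3. Summed fibroblast markers, mostly Col3a1, were 3170 CPM in it and 1953 to 2693 CPM in Myc_Utx lines. Krt8 was at 15.4 CPM in it, at 0 to 37.4 CPM in Myc_Utx lines and at 717 and 446 CPM in Myc_p53 replicates 1 and 3. Some other markers in Myc_p53 replicate 2 did not lie near the Myc_Utx lines. Col1a1 was at 144 CPM against 4.01 to 35.3 CPM in those lines, and Spp1 at 70.8 against 449 to 1362 CPM. The part of these differences in the transporter levels was not tested.

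**Figure D3:**
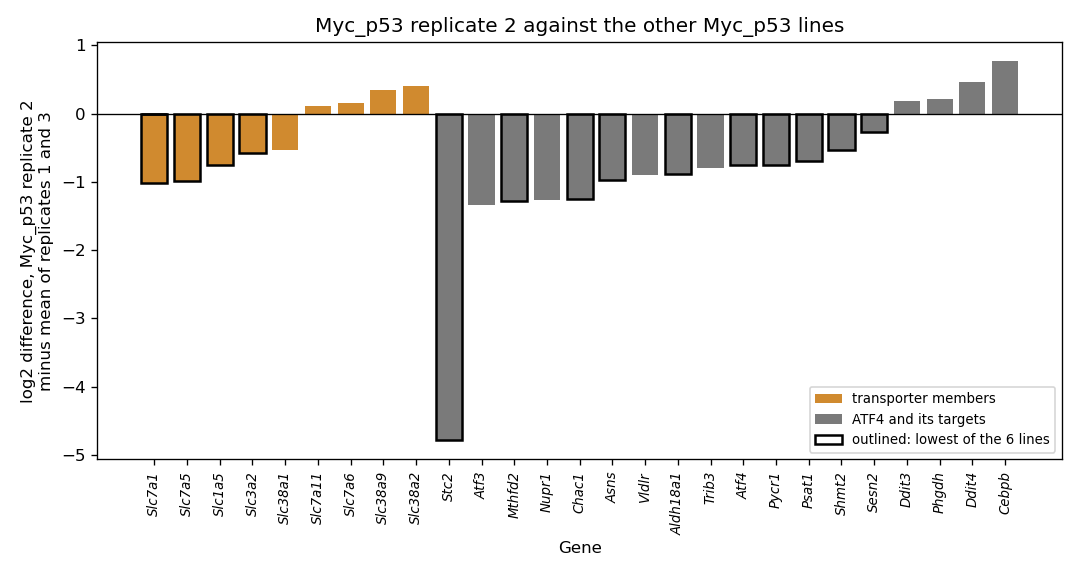
Log2 difference between Myc_p53 replicate 2 and the mean of Myc_p53 replicates 1 and 3 for the 9 tested transporter genes (orange) and 18 ATF4-linked genes (grey). Outlined bars mark genes for which this line was the lowest of the 6, which holds for 4 transporters and 10 ATF4-linked genes.

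For the 2 subunits of the leucine carrier, the genes with the most similar pattern were sought among the 9484 genes whose counts averaged 50 or more per line. Kctd3, Ing1 and Ube2q2 followed Slc7a5 most closely, with Pearson's r of log2 CPM over the 6 lines of 0.996, 0.995 and 0.992. Snhg14, Bcat1, the cytosolic transaminase of branched-chain amino acids, and Zhx1 followed Slc3a2, with r of 0.989, 0.987 and 0.986. The 6 points share their libraries and these are the highest of all values computed, so they are descriptions.

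Other genes of amino acid transport, sensing and use are given for comparison, from lists chosen with earlier results of these data known. Of 38 other amino acid transporter genes in the table, 19 were tested. By edgeR 1 fell in Myc_Utx lines and none rose, beside 7.69% and 6.99% of all genes tested. Without adjustment 1 was higher and 6 were lower, beside 16.6% and 18.3% of all genes tested. The median log2 fold change of the 19 was −0.36, beside the −0.081 of the members and the −0.012 of all genes tested. The gene that fell was Slc7a3 (CAT3), like Slc7a1 a carrier of arginine and lysine. It had 3, 3 and 2 counts in Myc_Utx and 38, 10 and 37 counts in Myc_p53 lines. Summed over lines, its level was 8.39-fold higher in Myc_p53 lines, with a 95% counting interval of 4.07 to 20.1. This interval leaves out the spread between lines. In edgeR its log2 fold change was −2.98, with a 95% interval of −4.36 to −1.61 and an adjusted p of 0.0261.

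Of 26 tested genes of amino acid sensing upstream of mTORC1, 4 rose and 3 fell, beside 6.99% and 7.69% of all genes tested. The median log2 fold change of the 26 was 0.031. Sesn2, a cytosolic leucine sensor that restrains mTORC1 and a known target of ATF4, was at 86.0, 68.9 and 50.3 CPM in Myc_Utx and 22.0, 18.7 and 23.0 CPM in Myc_p53 lines (log2 fold change 1.69, SE 0.23, adjusted p 0.0164). Genes that act beside Slc38a9 at the lysosome moved in both directions. Fnip1 and Fnip2, the partners of folliculin, which acts on the Rag GTPases, fell by 0.97 and 0.80 on the log2 scale (adjusted p 0.0169 and 0.0213). Rraga, a Rag GTPase, rose by 0.70, and Lamtor1, the Ragulator subunit that anchors the complex to the lysosome, by 0.57 (adjusted p 0.0287 and 0.0404). Gatsl2, a relative of the cytosolic arginine sensor Castor1, fell by 1.10 (adjusted p 0.0227), and Sec13, a GATOR2 subunit, rose by 0.77 (adjusted p 0.0331). Rraga, Lamtor1 and Sec13 lie outside the naming rule and were added after their values had been seen.

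Of the 18 ATF4-linked genes, 2 rose, Sesn2 and Ddit4, and none fell, beside 6.99% and 7.69% of all genes tested. Without adjustment 4 rose and 2 fell, beside 16.6% and 18.3%. The median log2 fold change of the 18 was −0.067. Ddit4 (REDD1), an inhibitor of mTORC1, was at 276, 177 and 186 CPM in Myc_Utx and 53.1, 74.5 and 54.6 CPM in Myc_p53 lines (log2 fold change 1.81, adjusted p 0.0154). Atf4 was at 298 to 388 CPM against 179 to 323 CPM and overlapped. Beside the same 6.99% and 7.69% of all genes tested, 1 of 10 genes of glutamine and glutathione use rose and 1 fell. These were the subunits of the enzyme that uses the cysteine brought in by Slc7a11, the catalytic subunit Gclc at 1.04 (adjusted p 0.0245) and the modifier subunit Gclm at −0.56 (adjusted p 0.0240). No gene of these 4 lists passed the threshold in edgeR when Myc_Utx replicate 2A or 2B or Myc_p53 replicate 3 was left out, and only Sesn2 did without Myc_Utx replicate 2D. In these fits the adjusted p of Slc7a3, Sesn2, Gatsl2, Fnip1, Fnip2, Ddit4, Gclc and Gclm was between 0.0514 and 0.104 where it missed the threshold, and the log2 fold changes kept their sign.

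**Figure D4:**
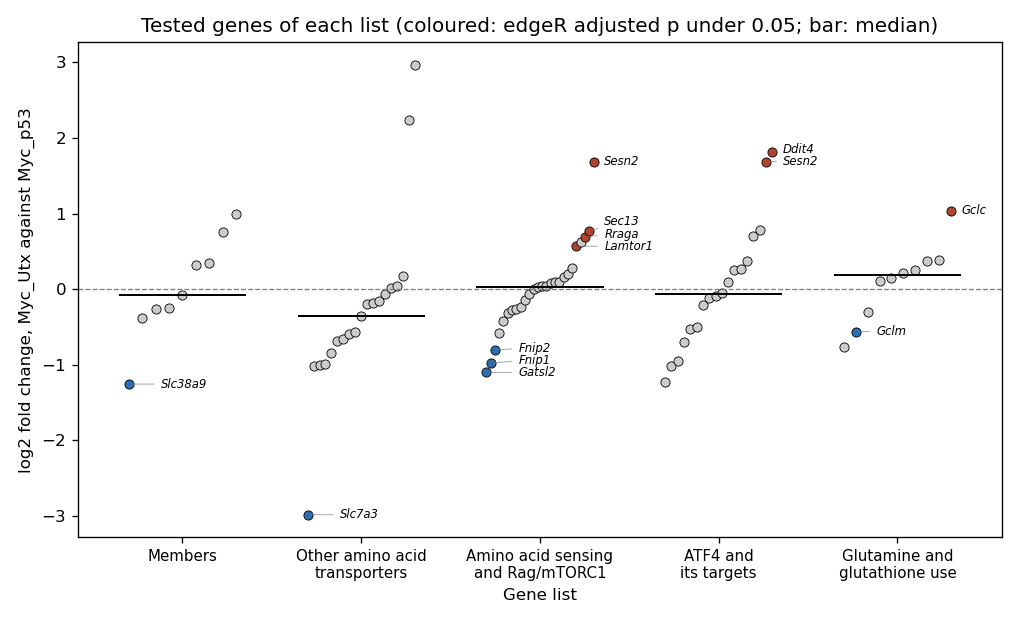
Log2 fold change, Myc_Utx against Myc_p53, of each tested gene in the transporter set and in 4 related lists, with a bar at each median and colour for an edgeR adjusted p under 0.05 (red higher, blue lower). The members' median sits at −0.081 with Slc38a9 the single coloured point, and the medians of the other lists lie between −0.36 and 0.18.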

How the data were processed

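RNA of 6 mouse liver tumour cell lines was sequenced. The authors deposited raw read counts per Ensembl gene, without normalisation. The submitters' processing notes name Trimmomatic 0.36, STAR 2.5.3a, featureCounts 1.6.3, DESeq2 1.20.0 and GRCm38, whereas the study's RNA sequencing methods name HTSeq, a human build and Myc;sgMll3 lines. Groups here follow the labels. Of the genes, 96.3% had the coordinates of GENCODE M21, and the deposited transcript length equalled the merged exonic length for 95.6%.

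Lines were grouped by labelled genotype, and no label pairs lines across groups. The whole table of counts was fitted with edgeR 4.0.16 (R 4.3.3), using filterByExpr (minimum count 10), TMM factors, quasi-likelihood F tests and p-values adjusted by Benjamini-Hochberg over all genes tested. The standard error is the absolute log2 fold change over the square root of F, and intervals are 95%. The fit was tested on simulated counts. Alternatives were no filter, at least 10 counts in every line, DESeq2 size factors, total counts only, DESeq2 1.42.0, length offsets (MASS 7.3.60.0.1, spline with 5 degrees of freedom) and leaving out each line.

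The members and lists were chosen with earlier results of these data known. Named were all members, Kdm6a and Myc, up to 4 called genes without overlap per list, and the 3 genes most correlated with Slc7a5 and Slc3a2. Depth was 4656103 to 6937497 counts per line. Exact counting intervals cover counting error only. The gene targeted in the comparison lines is not reported here. Chromatin and protein experiments of the study were not analysed here.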

Additional observations from a re-analysis of the deposited data

How the results depend on the processing

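Of 108 member values under alternatives, 97 kept their direction and side of the threshold. With DESeq2 Slc1a5 passed the threshold (0.74), and 1268 genes were higher and 1514 lower in Myc_Utx lines, 1 member higher, and 10 genes of the 4 other lists higher and 12 lower, against 6 and 5 in edgeR. With length offsets Slc38a9 (−0.92) lost its call, which left 0 members lower, and Slc38a1 turned to 0.10. The cause was not tested. Leaving out 1 line in turn gave log2 fold changes of 0.55 to 1.02 for Slc1a5, −0.64 to −0.23 for Slc7a1, −0.33 to 0.42 for Slc38a1, −1.41 to −1.13 for Slc38a9 and −0.30 to 0.068 for Myc. It also gave 3 to 836 genes higher and 1 to 1118 lower, 0 to 1 members higher and 0 to 2 lower, and 0 to 8 genes of the other lists higher and 0 to 9 lower. The fewest calls, 3 and 1, came without Myc_Utx replicate 2A. Such fits have 2 lines in a group and fewer degrees of freedom. Slc7a3 was too low to be tested without Myc_p53 replicate 1 or 3, or with at least 10 counts in every line. No paired analysis was possible because the groups share no replicate numbers. At these depths Slc43a1, with 4 to 67 counts per line, could not be compared with useful precision, and 3 lines per group limit the others.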
